A study of Arabidopsis thaliana with 4 samples.

Results

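Pollen is the male gametophyte of flowering plants, a vegetative cell that carries the sperm cells and grows the pollen tube through the pistil. Its tube grows only at the tip. Pectin methylesterases set the stiffness of the new wall there, receptor kinases watch the state of that wall, and late-acting MADS-box factors control many genes of pollen maturation. The oligonucleotide probes described here list known pollen genes of these kinds in the platform annotation, but each probe also lists at least 1 other gene, so no value below can be credited to any single gene.

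The probes were chosen by their annotation, from a list of loci drawn up with earlier results of these data known. A list of 45 pollen loci was matched to the probes that list 2 or more genes, and 17 probes listed at least 1 of the loci. Of these, 16 had values on all 4 arrays, out of 26156 gene probes with 4 values and 7405 such probes that list several genes. The 16 probes list 13 of the 45 loci together with 9 loci outside the list. A pair of genes was listed by 9 probes and 3 genes by 7 probes. Only genes of the pollen list were named by 6 probes, and the other 10 also named a gene outside it. The other 32 loci of the list were listed by no probe of the annotation used here and are not analysed here, among them every locus chosen for sugar transport, calcium-dependent kinases, ion channels and pumps, MYB factors, the actin cytoskeleton, arabinogalactan proteins and cellulose synthase-like enzymes. In that annotation none of the 13 loci had a probe of its own. The probe sequences were not used here, so it was not measured how much of each listed transcript a probe matches.

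Inflorescences, the flower-bearing shoot tips, of Arabidopsis thaliana pistillata plants were set against wild-type inflorescences on 4 arrays with 2 channels each. PISTILLATA is a B-class floral organ identity factor, and flowers without it make no petals and no stamens, the organs that bear pollen. The labels state neither the allele, the plant age, the dyes nor whether the 4 RNA pairs came from separately grown plants. The p-values therefore cover the differences among these arrays only, and those may be technical. Of 9 floral organ identity loci, PISTILLATA included, 0 were listed by a probe in the annotation used here. No probe could therefore be read for the mutated gene itself. That annotation lists no gene for 13193 gene probes. The arrays carry their set numbers, 1 to 4, and that they are so few limits the precision.

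The sign of the ratios is not settled by the labels. Arrays 1 and 3 have the same labelled channel order, and yet Pearson's r between their deposited columns was -0.68 over the 25018 gene probes that never reach the ends of the table's range (a correlation over probes, which do not count as replicates). It was -0.29 over all 26156 probes. Over the same sets of probes r was -0.68 and -0.05 between arrays 2 and 4, which also share a labelled order. Of the pairs with opposite labelled order, arrays 1 and 4 (0.71 and 0.49) and arrays 2 and 3 (0.77 and 0.65) ran together. Arrays 1 and 2 (-0.71 and -0.30) and arrays 3 and 4 (-0.69 and 0.0057) did not, so over all probes the opposition of array 4 to arrays 2 and 3 was close to 0. The ratios of arrays 1 and 4 were therefore multiplied by -1, which puts most anther gene probes on the wild-type side, and all values below are log2 ratios of pistillata over wild type in that likely direction. The 8 probes that list the anther genes behind this choice (TUA1, SHT, ATA20 and SWEET8) include 0 of the 16. After turning, 6 of these 8 were lower by limma and 2 were not called, the probe for TUA1 alone at -0.47 and a probe that lists SHT with other genes at 0.47, above 0 on all 4 arrays. Were the common sign exchanged, each lower value below would be a higher one. With signs taken from the labelled channel order instead, limma called 0 of the 16 probes, and 0 had an unadjusted p under 0.05.

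As deposited, all 16 probes were positive on arrays 1 and 4 and negative on arrays 2 and 3. Their medians on arrays 1 to 4 were 3.38, -3.11, -2.60 and 3.55. After turning, every one of the 16 was below 0 on every array, which 14.7% of all gene probes and 15.9% of all probes that list several genes also were. The 64 values ran from -6.48 to -0.19, and 0 of them lay at the end of the table's range, 6.64 on either side of 0. In bulk tissue, fewer cells of a type and less RNA per cell cannot be told apart.

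The 16 probes are not separate readings: they hold 12 distinct sets of listed genes, and 11 pairs of them share a pollen gene. Their loci were chosen with earlier results of these data known, so the shares below describe the set and test nothing. Of the 16 probes, 15 were lower in pistillata at an adjusted p of 0.05 by limma (fitted over all 26156 gene probes), where 7.23% of all gene probes and 8.28% of those that list several genes were lower. None was higher (0 of 16, and 0 by limma where the p is not adjusted, at under 0.05), against 2.98% of all gene probes and 3.12% of those that list several genes. In counts, 1890 gene probes were lower and 779 higher, or 2146 and 368 with every array's median set to 0. The excess of lower calls over all gene probes depended on the fit and the threshold. With a random block for the array pairs 1 with 2 and 3 with 4, 2598 were lower and 2626 higher by limma. These pairs were assumed, as the labels do not pair the arrays. The fitted correlation within them was -0.30, which narrows the standard error, so that fit was not a stricter one. In the fit without blocks, where the p is not adjusted, at under 0.05, 3245 were lower and 4762 higher by limma. Lower by at least 2-fold were 13 of the 16, against 5.64% of all gene probes. At an adjusted p of 0.01 by limma, 11 of the 16 were lower, against 3.65%. The median of the 16 mean log2 ratios was -3.04, beside 0.14 for all gene probes, 0.12 for all probes that list several genes and -1.77 for the probes called lower. Within the set the means spanned -5.52 to -0.54. The pectin methylesterase probes were lowest, at -5.52 to -4.57. Next came the 1 receptor kinase probe at -3.41, close to the lowest leucine-rich repeat extensin probe at -3.28. The means of the leucine-rich repeat extensin probes (-3.28 to -1.01) and the MADS-box probes (-2.66 to -0.54) overlapped. The 1 histone probe, at -0.67, lay within the MADS-box range. The order was read from these values and was not tested.

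Pectin methylesterases take methyl groups off pectin and so change how firmly the wall gels. VGD1 (AT2G47040) and VGDH1 (AT2G47030), its neighbour with no gene table entry between them, are listed together by a pair of probes. VGD1, also called VANGUARD1, is needed for pollen tubes to grow through the style and the transmitting tract. PPME1 (AT1G69940), a pollen enzyme that shapes the tube tip, is listed by 4 probes, each time with AT5G07410 and on 2 of them with AT5G61680 as well. AT5G07410 and AT5G61680 have no symbol in the gene table.

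The VGD1 and VGDH1 probe of the main set read -3.99, -4.01, -4.63 and -5.66 on arrays 1 to 4, a mean of -4.57 ± 0.78 (SD, n = 4), or 23.8-fold lower (limma adjusted p = 0.00271). The probe of the additional set with the same genes read -5.45, -4.60, -3.45 and -4.97, a mean of -4.62 ± 0.85 (SD, n = 4; limma adjusted p = 0.00324). The pair agreed in its mean to 0.04 log2 units, but which of them read lower differed between arrays, with differences from -1.19 to 1.45 (SD 1.20, n = 4). Array 4 was lowest for the former and array 1 for the latter.

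The lowest ratio of the set belonged to the additional-set probe for PPME1 and AT5G07410, at -5.68, -5.05, -5.00 and -6.33. Its mean was -5.52 ± 0.62 (SD, n = 4; limma adjusted p = 0.00108), a 45.8-fold difference, and it ranked 24th from the lowest of all 26156 probes. The additional-set probe that lists AT5G61680 too stood at -5.88, -4.88, -5.07 and -5.88, a mean of -5.43 ± 0.53 (SD, n = 4; limma adjusted p = 0.000964) and the 28th lowest. Both read lower on arrays 1 and 4 than on arrays 2 and 3.

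The main-set counterparts lay somewhat higher. That for PPME1 and AT5G07410 read -4.58, -4.07, -4.20 and -6.48, a mean of -4.83 ± 1.12 (SD, n = 4; limma adjusted p = 0.00562), and its value on array 4 came close to the end of the table's range. That for PPME1, AT5G61680 and AT5G07410 read -5.29, -3.86, -4.05 and -6.03, a mean of -4.81 ± 1.03 (SD, n = 4; limma adjusted p = 0.00467). The additional-set probe was below the main-set probe with the same genes on 3 of 4 arrays in both cases, by 0.68 ± 0.57 and 0.62 ± 0.55 log2 units on average (SD, n = 4 arrays each; exact sign permutation p = 0.25 for both, two-sided). With 4 arrays that test cannot go below 0.125. All 6 pectin methylesterase probes were among the 101 lowest of all gene probes, and each stayed below an adjusted p of 0.05 by limma without any 1 of the 4 arrays.

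ANX1 and ANX2, named ANXUR1 and ANXUR2, are receptor-like kinases that keep the growing pollen tube from bursting. Their probe also lists FER (FERONIA), the related receptor kinase that acts in the female tissue and in vegetative growth. It read -3.71, -3.60, -2.79 and -3.56 on arrays 1 to 4. The values of arrays 1, 2 and 4 lay close together and that of array 3 was higher. The mean was -3.41 ± 0.42 (SD, n = 4; limma adjusted p = 0.00151), or 10.7-fold lower. FER has a probe of its own, which read -0.43, -0.20, -0.36 and -0.04, a mean of -0.26 ± 0.17 (SD, n = 4; limma adjusted p = 0.199; 95% interval -0.55 to 0.03). The probe for FER alone lay above the shared probe on all 4 arrays, by 3.16 ± 0.50 log2 units (SD, n = 4).

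AT1G49490, AT3G19020, AT2G15880 and AT4G33970 were taken into the pollen list as leucine-rich repeat extensins, wall proteins of pollen and pollen tubes that bind signalling peptides; the gene table gives them no symbol. All 4 probes that list them were lower by limma, with means from -3.28 to -1.01. AT1G49490 and AT3G19020 share a probe that read -1.40, -1.65, -1.56 and -1.28, a mean of -1.48 ± 0.17 (SD, n = 4; limma adjusted p = 0.00321). A further probe lists AT4G28380 beside them and read -3.16, -3.10, -2.86 and -4.01, a mean of -3.28 ± 0.50 (SD, n = 4; limma adjusted p = 0.0023). The probe with AT4G28380 was the lower of them on all 4 arrays, by 1.80 ± 0.64 log2 units (SD, n = 4; exact sign permutation p = 0.125, two-sided, the smallest that 4 arrays allow). AT4G28380 on its own probe stood at -1.01, 0.00, -0.16 and -0.14, a mean of -0.33 ± 0.46 (SD, n = 4; limma adjusted p = 0.33).

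Probes with exactly the same genes also differed. AT2G15880 and AT4G33970 are listed by probe A014175_01, which read -3.54, -2.21, -1.93 and -3.53, and by probe A008584_01, which read -1.27, -1.09, -0.35 and -1.32. Their means were -2.80 ± 0.85 and -1.01 ± 0.45 (SD, n = 4 each; limma adjusted p = 0.0126 and 0.0452), that is 6.98-fold and 2.01-fold lower. The gap of 1.79 ± 0.55 log2 units (SD, n = 4) had the same sign on all 4 arrays and ranged from 1.12 to 2.27 (exact sign permutation p = 0.125, two-sided). For A014175_01 limma's adjusted p was 0.063 without array 1 and 0.0533 without array 4, and for A008584_01 it was 0.145, 0.166 and 0.129 without arrays 1, 2 and 4. That of A008584_01 was also 0.0528 with a term for arrays 1 and 4 against arrays 2 and 3, and 0.11 with the array pairs 1 with 2 and 3 with 4 averaged first.

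AGL66, AGL104 and AGL65 are MADS-box factors of the MIKC* type, which act together in maturing pollen and are needed for full pollen germination. AGL66 and AGL104 share a probe that read -2.61, -2.89, -2.41 and -2.72, one of the tightest sets of values here, with a mean of -2.66 ± 0.20 (SD, n = 4; limma adjusted p = 0.00108), or 6.31-fold lower. A probe that lists AGL67 as well read -3.22, -3.12, -2.36 and -1.27. Its mean was close, -2.49 ± 0.90 (SD, n = 4; limma adjusted p = 0.021), but the values fanned out, with array 4 the highest. By limma its adjusted p was 0.0895, 0.0839 and 0.0804 without arrays 1, 2 and 3, 0.0517 with the term for arrays 1 and 4, and 0.126 with the array pairs averaged first.

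A further probe with these genes, A021144_01, is the one that was left out of the set because it had no value on array 2. It lists AGL66, AGL67 and AGL104 and read 1.04, -0.41 and -0.13 on arrays 1, 3 and 4. These values lie on both sides of 0 and above those of the other AGL66 and AGL104 probes on each of the 3 arrays. AGL67 alone, a gene with 1 table entry between it and AGL66, had a probe at -0.10, 0.85, -0.18 and 1.03, a mean of 0.40 ± 0.63 (SD, n = 4; limma adjusted p = 0.356).

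AGL65 was listed with AGL30 by a pair of probes, 1 of which adds AGL94 and the other AGL33. The probe with AGL94 read -0.89, -0.89, -0.75 and -0.99, with the smallest spread of the set, and a mean of -0.88 ± 0.10 (SD, n = 4; limma adjusted p = 0.00898), or 1.84-fold lower. Its adjusted p by limma was 0.0665 without array 2 and 0.0876 with the array pairs averaged first. The probe with AGL33 was the only one of the 16 that was not called. It read -0.49, -1.07, -0.38 and -0.19, a mean of -0.54 ± 0.38 (SD, n = 4; limma adjusted p = 0.124; 95% interval -0.99 to -0.08). The probe with AGL33 lay above the probe with AGL94 on 3 of 4 arrays, by 0.35 ± 0.40 log2 units on average (SD, n = 4; exact sign permutation p = 0.25, two-sided). With 4 arrays that test cannot go below 0.125, so it cannot decide whether the pair differs. AGL33 alone had a probe at -0.16, -0.34, -0.82 and 0.72 (limma adjusted p = 0.736). A probe outside the set that lists AGL94 and AGL30 without AGL65 read -1.33, -2.24, -1.59 and -1.37, a mean of -1.63 ± 0.42 (SD, n = 4; limma adjusted p = 0.0102).

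MGH3, a histone H3 found in the male germ line, is listed with HTR12, the centromeric histone CENH3 of dividing cells. Their probe read -0.98, -0.74, -0.43 and -0.55, a mean of -0.67 ± 0.24 (SD, n = 4; limma adjusted p = 0.043), or 1.60-fold lower. All 4 values lay below 0, and yet the call was lost without any 1 of the arrays, with limma adjusted p of 0.101, 0.175, 0.102 and 0.104 without arrays 1 to 4. It was also lost with the term for arrays 1 and 4, with the array pairs averaged first and with trended and robust variance moderation (limma adjusted p = 0.0708, 0.169 and 0.0595). HTR12 on a probe of its own read 0.84, 0.32, 0.43 and 0.31, a mean of 0.47 ± 0.25 (SD, n = 4; limma adjusted p = 0.0968), on the other side of 0. The shared probe was below it on every array, by 1.15 ± 0.46 log2 units on average (SD, n = 4). The 4 other germ line loci of the list, DUO1, GEX1, GEX2 and HAP2, are not analysed here.

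Genes listed beside the pollen genes can be set against their own probes in 6 cases: HTR12, AGL67, AGL33, FER, AT4G28380 and AT5G61680. None of these 6 probes was called by limma (0 of 6). The unadjusted p by limma was under 0.05 for 2 of the 6, and for 8007 of all 26156 gene probes. These 2 lay on opposite sides of 0, HTR12 above (95% interval 0.13 to 0.82) and AT5G61680 below (-1.53 to -0.19). AT5G61680 was the lowest of the 6 probes, at -1.36, -1.41, -0.21 and -0.45, a mean of -0.86 ± 0.62 (SD, n = 4; limma adjusted p = 0.108). In 6 of 7 comparisons the gene's own probe lay above the shared probe on all 4 arrays; the exception was AGL33, where it did on 3. Different oligonucleotides of 1 gene can read differently, as the probes for AT2G15880 and AT4G33970 do, so these values do not assign the shared signal to the other listed genes.

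Among the 11 pairs of these probes with a pollen gene in common, 3 kept the same order on all 4 arrays: both leucine-rich repeat extensin pairs and 1 PPME1 pair, in which the additional-set probe for PPME1 and AT5G07410 lay 0.71 ± 0.44 log2 units (SD, n = 4) below the main-set probe with 3 genes. In the other 8 the order changed with the array.

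The spread between arrays was wider here than on the array at large. The median SD over the 4 arrays was 0.52 for the 16 probes, 0.39 for the probes called lower and 0.31 for all gene probes. Of the 16, 12 exceeded the median of all gene probes. Part of the spread ran with the turned arrays. On 13 of the 16 probes the mean of arrays 1 and 4 was below that of arrays 2 and 3, where 49.4% of all gene probes and 58.6% of the probes called lower showed that order. Both turned arrays lay below both others on 9 of the 16, against 21.6% and 23.3%. A term for arrays 1 and 4 against arrays 2 and 3 was called by limma on 0 of the 16, and on 0.34% of all gene probes. Its unadjusted p was under 0.05 on 4 of the 16 and on 2100 of all 26156. Those 4 were 3 PPME1 probes and A014175_01. Its part in the lower ratios was not tested. With that term in the fit, 12 of the 16 probes were lower by limma, against 1556 of all 26156 gene probes.

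Other pollen genes were looked up in the same way, from a list of 52 loci of like function. Outside the 16, 8 probes listed 8 of them, all 8 shared with further genes, and 6 were lower by limma with 0 higher (median -2.51). Of all probes that list several genes, 8.28% were lower. The 6 are not all separate readings. A pair of them lists AT5G07420 and AT5G07430, and another pair lists AT5G62850 and AT3G28007. Of the 6, 1 also lists SWEET8, an anther gene that set the sign. Another is the probe for AGL94 and AGL30 described above, both of which a probe of the set lists beside AGL65. A pair of probes for the loci AT5G07420 and AT5G07430 stood at -3.80 ± 1.07 and -3.17 ± 0.74 (SD, n = 4 each; limma adjusted p = 0.00974 and 0.00611). Probes for AT3G06830 disagreed. The one listed with AT5G49180 read -3.72, -2.90, -2.43 and -4.46, whereas the one that adds AT4G15980 ran from -0.21 to 1.21, with a mean of 0.65 ± 0.63 (SD, n = 4; limma adjusted p = 0.0083 and 0.177). The shared probe of AT4G39110 and AT2G21480 was at -0.27 ± 0.30 (SD, n = 4; limma adjusted p = 0.276).

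The few probes for tissues that pistillata flowers retain were not called. Of all gene probes only 7.23% were lower and 2.98% higher, so a lack of calls among so few probes says little. Of 20 carpel and ovule loci, 5 were listed, by 9 probes, 6 of them shared with further genes. By limma 0 of the 9 were lower and 0 higher, and their median was 0.37. The unadjusted p by limma was under 0.05 for 7 of the 9, of which 2 were lower and 5 higher. It was so for 8007 of all 26156 gene probes. Of 32 photosynthesis loci, 5 were listed, by 6 probes, 4 of them shared with further genes. Limma called 0 of the 6, with a median of 0.28, and 2 had an unadjusted p under 0.05. The tapetum, the anther layer that feeds pollen, had 2 of its 21 loci listed, by 3 probes, all 3 shared with further genes. By limma 2 of these probes were lower, at means of -4.40 and -4.26, and 1 was higher at 1.17. Both lower probes list AT5G07230 with AT5G62080, so they are not separate readings. Whether loss of any one of these tissues sets the ratios of the pollen probes was not tested.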

How the data were processed

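The deposited values are log2 ratios between the channels of an array, which the labels say were normalized by a published method. Its background correction, centring, numerator and dyes were not stated, and signal strengths were not used here. The scale was read from the ends of the range, at 6.64 on each side of 0, which is a ratio of 100. Of 26933 rows, 424 empty and 35 control spots were left out. The platform annotation lists 1 gene for 5784 gene probes, several for 7497 and none for 13193. Of 14034 gene numbers, 13978 matched a locus of the gene table (assembly TAIR10.1), which served for names and neighbours only. The channel ratios of arrays 1 and 4 were multiplied by -1.

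All gene probes with 4 values were fitted in R 4.3.3 with limma 3.58.1 (lmFit with an intercept, eBayes, two-sided, Benjamini-Hochberg over all 26156 probes, threshold 0.05). The fit was tested on simulated data. Differences between probes were taken array by array and tested by exact sign permutation, unadjusted over 11 pairs. Every probe of the set is named with all genes it lists. The members, lists and tests were chosen with earlier results of these data known. Alternatives were other turning, centring, a channel term, array pairs, variance moderation, weights, capped or missing values, a stricter threshold and leaving out each array.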

Additional observations from a re-analysis of the deposited data

Results flagged for a closer look

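The probe that lists ANX1, ANX2 and FER read -2.79 on array 3, apart from its 3 other values, with a gap to the nearest of them of 0.842 of the whole range. The 4 values of each of the 16 probes were tested, and no other stood apart in this way; about 1 in 20 does by chance. Without array 3 the mean of the probe was -3.62.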

How the results depend on the processing

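With signs set by the labelled channel order, limma called 0 probes lower and 0 higher, of the 16 and of all gene probes alike (128 of all gene probes and 0 of the 16 at an unadjusted p under 0.05), and the median of the 16 became 0.06. In that order 10 of the 16 means were above 0: 0.09 and 0.68 for the AGL66 and AGL104 probes without and with AGL67, 0.01 and 0.25 for the AGL65 probes with AGL94 and with AGL33, 0.08 and 0.17 for A014175_01 and A008584_01, 0.05 for AT1G49490 with AT3G19020, 0.41 for the additional-set VGD1 probe, 0.24 for ANX1, ANX2 and FER, and 0.19 for MGH3 with HTR12. Under the other alternatives 11 to 15 of the 16 were lower and 0 higher, and 15 of 17 with values on at least 3 arrays, which adds A021144_01; there were 11 with arrays 1 and 2 and arrays 3 and 4 averaged first, 14 with trended and robust variance moderation, and 11, 11, 13 and 12 without arrays 1, 2, 3 and 4. The medians of the 16 ran from -3.26 to -2.93, and that of the 17 was -2.80. Over all gene probes, lower counts were 778 with array pairs averaged, 956 at an adjusted p of 0.01, and 1119, 1046, 1122 and 1306 without arrays 1 to 4. Higher counts were 368 after centring (the median of all probes moved from 0.14 to 0.02) and 94 with pairs averaged. With the term for arrays 1 and 4 against arrays 2 and 3 there were 477 (1556 lower). They were 2626 with pairs as a random block (2598 lower), 14 with trended moderation, 1784 with array weights and 1399 without capped probes. At an adjusted p of 0.01 there were 70, and without arrays 1 to 4 there were 162, 85, 105 and 190. The causes were not tested. No paired analysis was possible because the 4 arrays form 1 group and no second group shares their numbers; each ratio already pairs the genotypes on its array.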
